A study of Trichoderma reesei with 6 samples.

Results

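The genes described here are the oxidoreductase genes that the study annotated among those it listed as differing between a *Trichoderma reesei* strain without *gul1* and its reference. From the 521 genes of that list, those were taken whose annotation contains dehydrogenase, reductase, oxidase, oxygenase, P450, catalase or peroxidase, which have no CAZy family, and whose transcript reached a mean of at least 5 FPKM in one of the strains. Of the 9113 genes measured, 3 met this rule, namely a glucose oxidase gene (TRIREDRAFT_22915), an alcohol oxidase gene (TRIREDRAFT_123978) and a catalase gene (TRIREDRAFT_106245). Only 92 genes of the list carry any annotation, so oxidoreductase genes without one could not be chosen. The words also matched 3 polysaccharide monooxygenase genes of family AA9, which the CAZy condition left out. No gene with the words and without a family fell under 5 FPKM, and the member nearest to this limit was the catalase gene, with a mean of 14.6 FPKM in the strain where it was higher.

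*T. reesei* is a filamentous fungus grown for its secreted cellulases. Both strains descend from QP4, a uridine auxotroph made from QM9414 by deletion of *pyr4*, and both regained prototrophy with the *pyrG* gene of *Aspergillus niger*. In Δ*gul1*, *pyrG* replaces most of *gul1*, which encodes a putative mRNA-binding protein, and in the reference strain QPP it sits at a random site. Δ*gul1* is 1 transformant, so effects of the deletion and of other differences of this transformant cannot be told apart. Mycelia of each strain came from 3 cultures, precultured for 36 hr and then kept for 48 hr at 30°C with 1% (wt/vol) cellulose as carbon source. Their mRNA was sequenced, and the library totals inferred from the steps of the FPKM were 17654286 to 21659230 fragments. The transcript of *gul1* (TRIREDRAFT_77084) was at 79.9 to 86.9 FPKM in the QPP libraries and at 0.581 to 0.979 FPKM in the Δ*gul1* libraries. The cellobiohydrolase gene *cel7a*, also called *cbh1* and a marker of growth on cellulose, was at 26718 to 29254 FPKM in QPP and at 9667 to 10490 FPKM in Δ*gul1* (log2 fold change -1.64, and -0.51 with quantile normalization).

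Glucose oxidase and alcohol oxidase are flavoproteins that pass electrons from their substrate to oxygen and thereby form hydrogen peroxide. The former oxidizes glucose to gluconolactone, and the latter oxidizes primary alcohols such as methanol to the aldehyde. Catalase is a heme enzyme that splits hydrogen peroxide into water and oxygen. The members therefore comprise enzymes that form hydrogen peroxide and one that removes it. Fungi are known to use several catalases and oxidases at different stages of growth and development, and secreted peroxide can serve as co-substrate of the AA9 enzymes.

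The transcripts of all 3 genes were more abundant in Δ*gul1*. The alcohol oxidase transcript differed most, by 3.38-fold, followed by that of catalase with 2.79-fold and that of glucose oxidase with 2.25-fold (ratios of mean FPKM after scaling between libraries). FPKM are fragments per kilobase of gene model, scaled by the total of the library. Because the study listed these genes for this difference in these same libraries, the values below describe the members and no test is given for them. In RNA from whole mycelia, a change in the share of some hyphal cell type and a change in RNA per cell cannot be told apart.

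The glucose oxidase gene TRIREDRAFT_22915 spans positions 189974 to 191814 of its scaffold in the QM6a assembly v2.0. The gene length recovered from its FPKM is 1785 bp, 56 bp short of the span. Its transcript was at 22.0, 24.1 and 24.0 FPKM in QPP replicates 1 to 3 and at 53.3, 62.1 and 60.4 FPKM in Δ*gul1* replicates 1 to 3. The strains did not overlap. The lowest Δ*gul1* library was 2.21 times the highest QPP library in FPKM as deposited, and 2.01 times after scaling. The mean level was 23.3 ± 1.20 FPKM in the reference and 58.6 ± 4.68 FPKM in the mutant (SD, n = 3). These values rest on 785 to 931 fragments per QPP library and 1957 to 2083 fragments per Δ*gul1* library. On the scale of log2 of scaled FPKM plus 1, which understates the change of genes of low FPKM, the fold change was 1.14 (SE 0.0750, 95% interval 0.96 to 1.31). Among the 9113 genes ranked by mean FPKM, this gene stood at percentile 43.5 in QPP and at percentile 67.9 in Δ*gul1*.

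The alcohol oxidase gene TRIREDRAFT_123978 lies from 254951 to 257249 of its scaffold, with a recovered length of 2099 bp, 200 bp short of the span. It was the most abundant transcript of the members, with 51.0, 49.1 and 37.9 FPKM in QPP replicates 1 to 3 and 195, 177 and 150 FPKM in Δ*gul1* replicates 1 to 3. Every Δ*gul1* library was at least 2.93 times the highest QPP library in FPKM as deposited, and at least 2.55 times after scaling. The mean level was 46.0 ± 7.12 FPKM in the reference and 174 ± 22.6 FPKM in the mutant (SD, n = 3), from 1500 to 2232 and from 6069 to 8434 fragments per library. The log2 fold change was 1.74 (SE 0.137, 95% interval 1.42 to 2.06). This gene also varied most between cultures of one strain. Its coefficient of variation was 15.5% in QPP and 13.03% in Δ*gul1*, where the medians over genes within 2-fold of its level were 5.73% and 6.10%. The spread within a strain was small beside the difference between strains. Its percentile among all genes was 64.0 in QPP and 90.5 in Δ*gul1*.

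The catalase gene TRIREDRAFT_106245 lies from 117728 to 119449 of its scaffold, with a recovered length of 1566 bp, 156 bp short of the span. It was the least abundant member, at 4.72, 5.04 and 4.30 FPKM in QPP replicates 1 to 3 and at 13.05, 15.6 and 15.1 FPKM in Δ*gul1* replicates 1 to 3. The lowest Δ*gul1* library was 2.59 times the highest QPP library in FPKM as deposited, and 2.38 times after scaling. The means were 4.69 ± 0.374 FPKM and 14.6 ± 1.36 FPKM (SD, n = 3). Its shallowest library, QPP replicate 3, held 127 fragments of this gene, with an exact Poisson 95% interval of 106 to 151 fragments, and the Δ*gul1* libraries held 422 to 456. This interval covers counting error only. The log2 fold change was 1.31 (SE 0.101, 95% interval 1.08 to 1.55), and it was 1.47 in a limma-voom fit of the fragments recovered from the FPKM, since the added 1 damps the change of a gene of this level. Its percentile was 20.1 in QPP and 31.6 in Δ*gul1*.

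**Figure D1:**
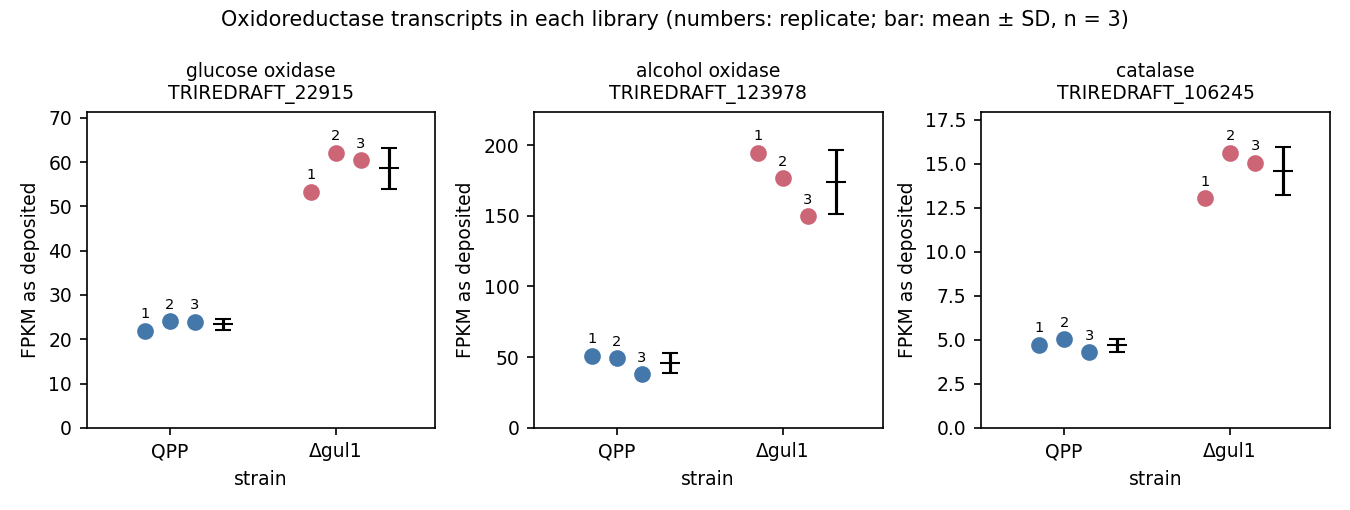
FPKM as deposited (y axis, from 0) of the glucose oxidase, alcohol oxidase and catalase genes in each library of QPP (blue) and Δgul1 (red), with replicate numbers at the points and mean ± SD (n = 3) as black bars. In each panel the 3 Δgul1 libraries lie above the 3 QPP libraries, for alcohol oxidase at 150 to 195 against 37.9 to 51.0 FPKM.

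In the fit over all genes, 168 of 9006 genes (1.87%) were called higher in Δ*gul1*, that is, past 1 on the log2 scale at an unadjusted limma *p* below 0.05. All 3 members were among them, as their selection by the study for the same contrast would give, and nothing is read from this count. By size of the log2 fold change they took ranks 45 (alcohol oxidase), 86 (catalase) and 122 (glucose oxidase) of these 168 genes. Their values therefore surrounded the median log2 fold change of 1.38 over the 154 called genes that reached 5 FPKM. The scaled FPKM of the strains did not overlap, with Δ*gul1* higher, for 22.3% of all genes fitted. Each member was called under all 14 other settings of the analysis, and its log2 fold change lay between 1.09 and 1.29 for glucose oxidase, between 1.61 and 1.90 for alcohol oxidase and between 1.26 and 1.47 for catalase.

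Ratios between members within a library are the same whatever factor a library is scaled by. Alcohol oxidase transcripts were 1.98 ± 0.376 times as abundant as glucose oxidase transcripts in QPP and 2.99 ± 0.601 times in Δ*gul1* (ratio of FPKM, SD, n = 3). The 3 QPP ratios, between 1.58 and 2.32, lay below the 3 Δ*gul1* ratios, between 2.48 and 3.65. The ratio of glucose oxidase to catalase was 5.004 ± 0.504 in QPP and 4.02 ± 0.0557 in Δ*gul1*, again without overlap, with a lowest QPP ratio of 4.65 and a highest Δ*gul1* ratio of 4.08. These ratios were not tested, since the members were chosen on this contrast. The ratio of alcohol oxidase to catalase overlapped, with 8.81 to 10.8 in QPP and 9.93 to 14.9 in Δ*gul1*. The summed FPKM of both oxidases stood to that of catalase as 14.8 ± 0.590 in QPP and as 16.1 ± 2.62 in Δ*gul1*, and this ratio overlapped as well.

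**Figure D2:**
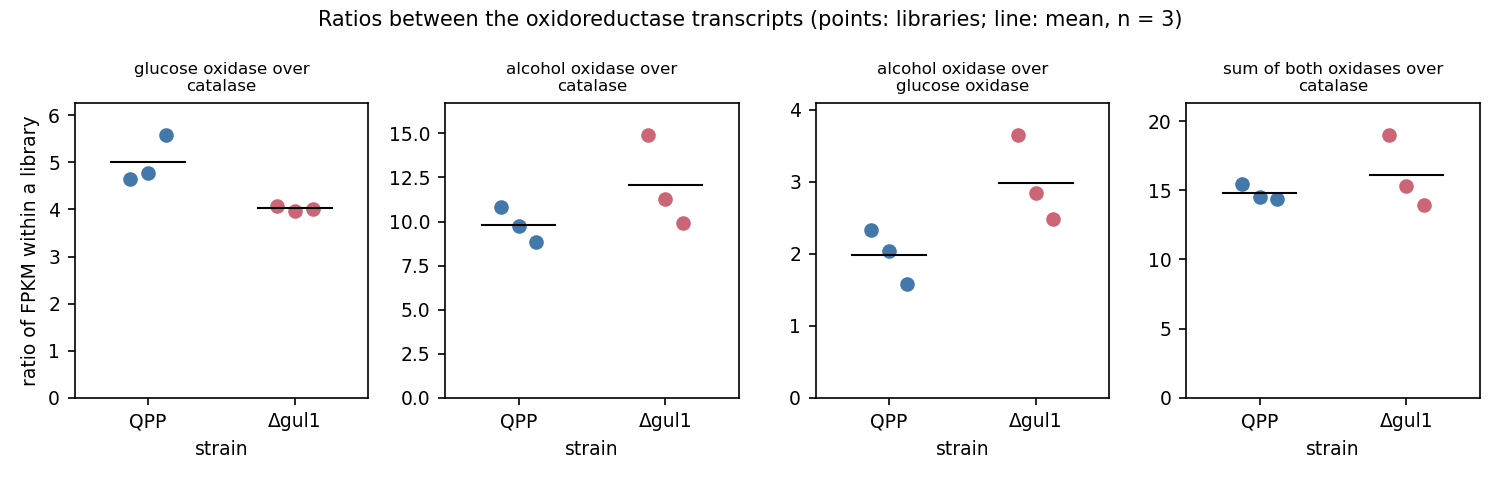
Ratio of FPKM between members within each library (y axes, from 0) in QPP (blue) and Δgul1 (red), with the mean (n = 3) as a line. The strains are apart for glucose oxidase over catalase and for alcohol oxidase over glucose oxidase, and overlap for alcohol oxidase over catalase and for the sum of both oxidases over catalase (14.8 and 16.1 on average).

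Over the 6 libraries, log2 levels of glucose oxidase and catalase had a Pearson correlation of 0.994, those of catalase and alcohol oxidase of 0.974, and those of glucose oxidase and alcohol oxidase of 0.958. These correlations are across 6 libraries and include the step between strains that all members share. By correlation with glucose oxidase, catalase ranked 18 and alcohol oxidase 323 of 7422 genes of at least 5 FPKM. Alcohol oxidase ranked 243 by correlation with catalase. Within strains the members differed in order. Alcohol oxidase was lowest in replicate 3 of both strains, whereas glucose oxidase was lowest in replicate 1 of both strains. Catalase was lowest in replicate 3 of QPP and in replicate 1 of Δ*gul1*. Among 7422 other genes of at least 5 FPKM, those most like glucose oxidase were TRIREDRAFT_47752, TRIREDRAFT_78988 and TRIREDRAFT_120931, with correlations of 0.999, 0.998 and 0.998 over the 6 libraries. Each had a log2 fold change under 1, between 0.29 and 0.57, so that likeness of pattern did not mean a change of like size. The gene most like alcohol oxidase was TRIREDRAFT_44366, an esterase gene of family CE3 (correlation 0.999), at 115 ± 12.3 FPKM in the reference and 299 ± 28.6 FPKM in the mutant (SD, n = 3). It is also in the study's list and was picked for its likeness to a member, so its log2 fold change of 1.22 (SE 0.104) is a description without a test. TRIREDRAFT_68869 and TRIREDRAFT_80825 came next, with correlations of 0.998 and 0.997. The genes most like catalase were TRIREDRAFT_4999, TRIREDRAFT_45688 and TRIREDRAFT_108655, with correlations of 0.999, 0.999 and 0.998. TRIREDRAFT_4999 is the gene next to glucose oxidase, described with the other neighbours.

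**Figure D3:**
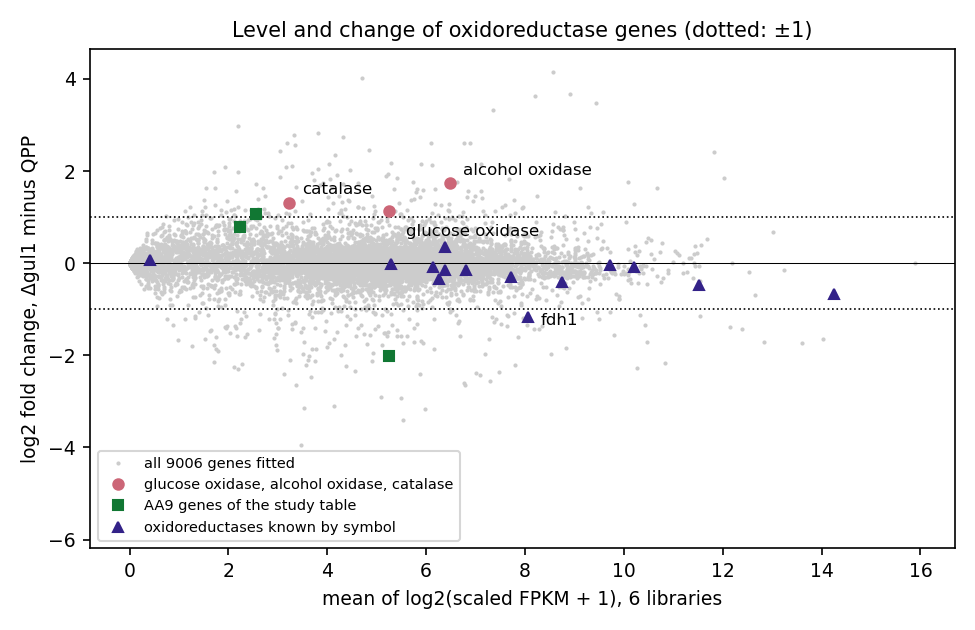
Log2 fold change (Δgul1 minus QPP, y axis) against mean log2 of scaled FPKM plus 1 over the 6 libraries (x axis) for all 9006 genes fitted (grey), the 3 members (red circles), the AA9 genes of the study's list (green squares) and 14 oxidoreductase genes known by symbol (blue triangles), with dotted lines at 1 and -1. The members lie between 1.14 and 1.74, and among the 14 genes only fdh1 lies beyond a dotted line, at -1.16.

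The deposited table identifies 14 other oxidoreductase genes by symbol, taken here for their symbol alone. In limma, 0 of them were called higher and 1 was called lower, where 1.87% and 2.09% of all genes were. The same counts came from limma-voom, and 1 gene, *gld1*, was higher at an unadjusted *p* under 0.05. Their median log2 fold change was -0.15, against 0.01 over all genes fitted. After Benjamini-Hochberg adjustment over all genes, the *p* of limma was below 0.05 for 5 of them, each lower in Δ*gul1*, whereas 14.5% of all genes were higher and 15% lower at that level. With the FPKM as deposited, where the median of all genes rose from 0.01 to 0.14, 1 was higher and 2 were lower at that adjusted *p*. By limma-voom, 1 was higher and 6 were lower at that level.

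Among enzymes against reactive oxygen, *cat1*, a further catalase gene, was at 0.243, 0.253 and 0.354 FPKM in QPP replicates 1 to 3 and at 0.206, 0.413 and 0.567 FPKM in Δ*gul1* replicates 1 to 3. It had 7 to 18 fragments per library, and a difference between the overlapping strains was not detectable at this depth. The log2 fold change was 0.07 (SE 0.108, 95% interval -0.18 to 0.33), but at this level the added 1 damps the change and narrows its interval. With 0.1 added in place of 1 it was 0.19 (SE 0.340), and by limma-voom it was 0.21 (SE 0.453). The interval from the main fit is therefore no measure of equal *cat1* levels. TRIREDRAFT_106245 was the more abundant of these catalase transcripts in all 6 libraries. The superoxide dismutase gene *sod1*, whose enzyme makes hydrogen peroxide from superoxide, ranged from 702 to 897 FPKM in the reference and from 810 to 989 FPKM in the mutant (log2 fold change -0.03, 95% interval -0.28 to 0.22), with overlapping strains and a value above 0 with the FPKM as deposited or with quantile normalization.

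The formate dehydrogenase gene *fdh1* (TRIREDRAFT_121298) went the opposite way to alcohol oxidase. Formate dehydrogenase oxidizes formate to carbon dioxide, the last step of methanol oxidation in fungi that start it with alcohol oxidase. Its transcript was at 307, 394 and 445 FPKM in QPP replicates 1 to 3 and at 187, 166 and 213 FPKM in Δ*gul1* replicates 1 to 3, without overlap, a separation with Δ*gul1* lower that 22.7% of all genes showed. The log2 fold change was -1.16 (with SE 0.135 and, in limma, adjusted *p* = 0.000670), and *fdh1* was called lower under all 14 other settings. Its values there ran from -1.30 without QPP replicate 1 to -1.003 with the FPKM as deposited, barely past the threshold. The gene *fdh1* is also in the list the study drew from these libraries, there without an annotation. The gene *fld1*, whose symbol stands for formaldehyde dehydrogenase in methylotrophic yeasts, averaged 218 ± 12.9 FPKM in the reference and 199 ± 13.5 FPKM in the mutant (SD, n = 3), at a log2 fold change of -0.29 with SE 0.0661 (limma, adjusted *p* = 0.0142), without passing the threshold on the fold change. With the FPKM as deposited, *fld1* had -0.13 (adjusted *p* = 0.171, limma), and without Δ*gul1* replicate 2 it had -0.27 (adjusted *p* = 0.0506, limma).

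Of 5 genes of sugar and polyol oxidation or reduction, *xyl1*, the D-xylose reductase gene, had a log2 fold change of -0.40 (with SE 0.0576 and limma adjusted *p* = 0.00187) and *xdh1*, the xylitol dehydrogenase gene, of -0.35 (with SE 0.0709 and limma adjusted *p* = 0.00853). With the FPKM as deposited, *xdh1* had -0.19 (adjusted *p* = 0.0781, limma) and *xyl1* had -0.24 (adjusted *p* = 0.0179, limma). The glycerol dehydrogenase gene *gld1* ranged from 59.4 to 80.2 FPKM in the reference and from 89.8 to 108 FPKM in the mutant (log2 fold change 0.35, adjusted *p* = 0.0533, limma). Its adjusted *p* by limma was 0.0110 with the FPKM as deposited and 0.0238 to 0.154 with 1 library left out. By limma-voom it was 0.0350. The L-arabinitol dehydrogenase gene *lad1* and the L-xylulose reductase gene *lxr1* were at -0.03 and -0.15 on the log2 scale, and above 0 with the FPKM as deposited (limma, adjusted *p* of 0.88 and 0.231 with scaling). The dehydrogenase genes of central carbon metabolism *gpd1* (glyceraldehyde-3-phosphate), *idh2* (isocitrate) and *zwf1* (glucose-6-phosphate), all above 0 with the FPKM as deposited, were at -0.08, -0.08 and -0.15 on the log2 scale (limma, adjusted *p* between 0.0835 and 0.495).

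Of the AA9 genes, which oxidize cellulose with a copper ion and were left out of the members by their family, TRIREDRAFT_31447 rose from 2.92 ± 0.562 to 8.10 ± 2.19 FPKM (SD, n = 3), and it had 1.07 on the log2 scale, which turned to 0.94 with QPP replicate 3 left out and to 0.89 with Δ*gul1* replicate 1 left out. TRIREDRAFT_27554 had 0.79, TRIREDRAFT_76065 fell by 2.01 on the log2 scale, and *cel61a* and *cel61b*, at far higher levels, had -0.47 and -0.67 (limma adjusted *p* of 0.0182 and 0.126). With the FPKM as deposited, *cel61a* had -0.31 (adjusted *p* = 0.0744, limma). For *cel61b* the log2 value was above 0 with quantile normalization, whereas the adjusted *p* was 0.04 with a minimum mean of 1 FPKM, 0.0254 without a trend and 0.00967 with limma-voom, at -0.67 in each.

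**Figure D4:**
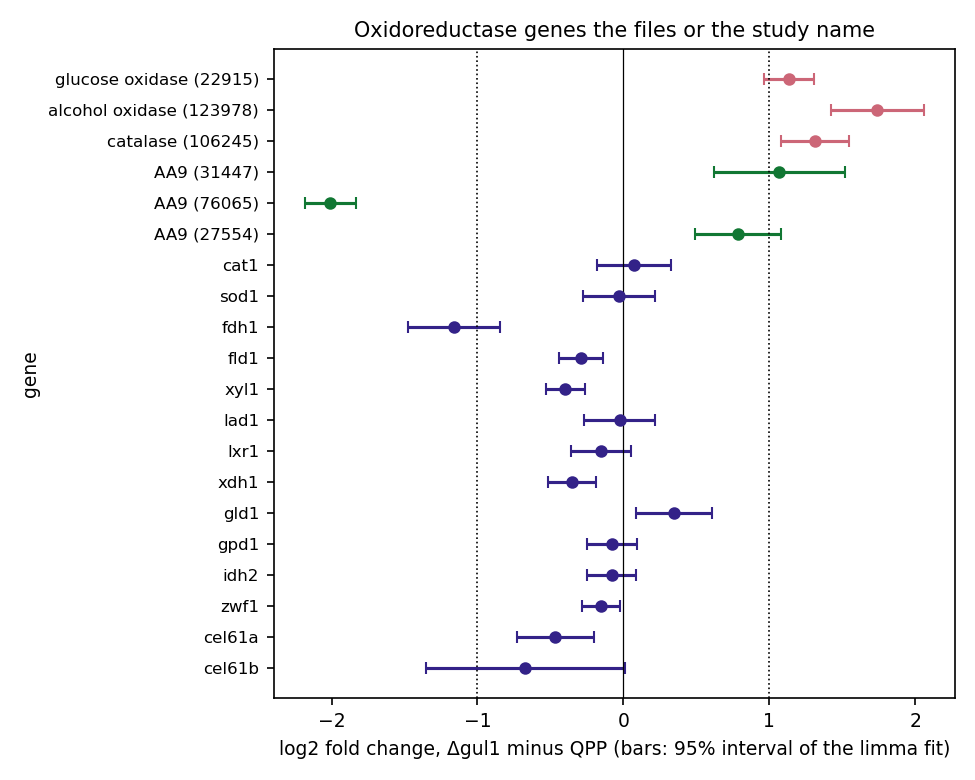
Log2 fold change (Δgul1 minus QPP, x axis) with the 95% interval of the limma fit for the members (red), the AA9 genes of the study's list (green) and the 14 oxidoreductase genes known by symbol (blue), with dotted lines at 1 and -1. The intervals of the 3 members start at 0.96, 1.42 and 1.08, whereas fdh1 lies at -1.16 and the other 13 genes known by symbol lie between -0.67 and 0.35.

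No member is among the 2 nearest genes on either side of another, and the genes beside each were compared between the strains. On the side of increasing positions, glucose oxidase is followed after 1023 bp by TRIREDRAFT_4999 and then by TRIREDRAFT_50593. TRIREDRAFT_4999 was at 287, 295 and 277 FPKM in QPP and at 458, 488 and 488 FPKM in Δ*gul1* (limma, log2 fold change 0.58 with SE 0.0531 and adjusted *p* of 0.000218). TRIREDRAFT_50593 had a log2 fold change of 0.93 (with SE 0.0746 and limma adjusted *p* = 0.000120), and 1.08 with the FPKM as deposited. On the other side of glucose oxidase, TRIREDRAFT_30578 and TRIREDRAFT_109973 were at -0.45 and 0.09 on the log2 scale (limma, adjusted *p* of 0.0596 and 0.423). Of these 4 genes, 2 were higher and 0 lower at a limma adjusted *p* under 0.05, as were 14.5% and 15% of all genes, and TRIREDRAFT_30578 was lower at an unadjusted *p* of 0.0188.

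Around catalase, 3 of the 4 neighbours were higher in Δ*gul1* at an adjusted *p* under 0.05, as were 14.5% of all genes. TRIREDRAFT_29716, which starts 1054 bp beyond it, averaged 74.1 ± 3.79 FPKM in the reference and 153 ± 7.68 FPKM in the mutant (SD, n = 3), at a log2 fold change of 0.88 with SE 0.0668 (limma, adjusted *p* = 8.93e-05), and 1.04 with the FPKM as deposited. The next gene, TRIREDRAFT_106248, was called higher, from 146 ± 30.1 to 347 ± 38.2 FPKM (limma, log2 fold change 1.10 with SE 0.157 and adjusted *p* of 0.00176), but had 0.94 without QPP replicate 3. On the other side, TRIREDRAFT_106244 had 0.37 (adjusted *p* = 0.0278, limma) and TRIREDRAFT_3447 had 0.21 (adjusted *p* = 0.314, limma). For TRIREDRAFT_106244 the adjusted *p* of limma lay between 0.0314 and 0.0908 with 1 library left out.

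Around alcohol oxidase, the nearest gene on the side of increasing positions, TRIREDRAFT_123979 at a distance of 4339 bp, changed in the opposite direction. It was at 392, 416 and 342 FPKM in QPP replicates 1 to 3 and at 146, 133 and 143 FPKM in Δ*gul1* replicates 1 to 3, without overlap (limma, log2 fold change -1.59 with SE 0.0792 and adjusted *p* of 1.59e-05). TRIREDRAFT_69574 beyond it had -0.39 (adjusted *p* = 0.0168, limma), and -0.25 with the FPKM as deposited (adjusted *p* = 0.0671, limma). For TRIREDRAFT_69574 the adjusted *p* of limma lay between 0.0235 and 0.0588 with 1 library left out. TRIREDRAFT_82017, 1051 bp away on the other side, averaged 23.04 ± 7.03 FPKM in the reference and 29.3 ± 7.50 FPKM in the mutant, with overlapping strains (adjusted *p* = 0.606, limma), and TRIREDRAFT_111811 had 0.29 (adjusted *p* = 0.295, limma). Of these 4 genes, 2 were lower and 0 higher in Δ*gul1* at an adjusted *p* under 0.05 by limma, where 15% and 14.5% of all genes were, and 0 were higher at an unadjusted *p* under 0.05 by limma or limma-voom.

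**Figure D5:**
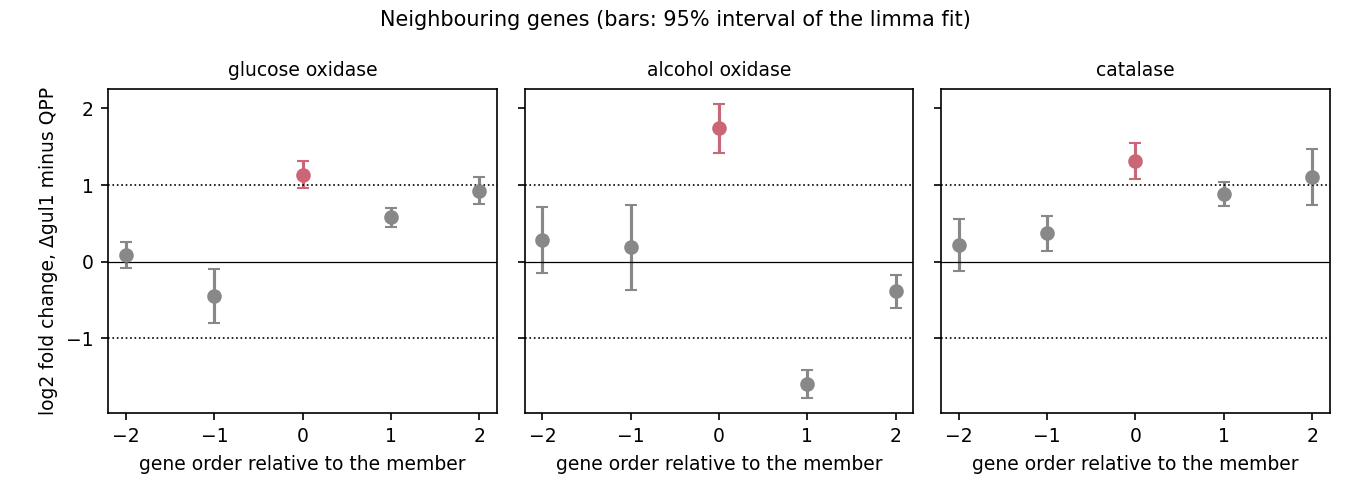
Log2 fold change (Δgul1 minus QPP, y axis) with the 95% interval of the limma fit for each member (red, position 0) and the 2 genes on each side of it (grey), in the order of their positions on the scaffold (x axis), with dotted lines at 1 and -1. Both genes at positions 1 and 2 lie above 0 beside glucose oxidase and catalase, and at -1.59 and -0.39 beside alcohol oxidase.

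Oxidases and catalases are known to vary with development in fungi. In *Aspergillus*, *brlA* regulates conidiophore development and *wetA* acts late in conidiation. The transcript of *brlA* (TRIREDRAFT_108357), a regulator of conidiophore development, ranged from 1085 to 1263 FPKM in the reference and from 590 to 656 FPKM in the mutant (log2 fold change -1.06, and -0.90 with the FPKM as deposited, -0.99 with quantile normalization and -0.98 without QPP replicate 1), and *wetA* (TRIREDRAFT_4430), which acts late in conidiation in *Aspergillus*, ranged from 5.87 to 8.85 FPKM in the reference and from 14.9 to 19.96 FPKM in the mutant (log2 fold change 0.95, not called). The part of *brlA* and *wetA* in the higher levels of the members was not tested.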

How the data were processed

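The data are 6 RNA-seq libraries, 3 of QPP and 3 of Δ*gul1*, grouped and numbered by their labels. The authors trimmed reads (cutadapt), aligned them to the QM6a assembly v2.0 (HISAT2), summed fragments over each gene (HTSeq) and deposited FPKM of 9113 genes. Whether counting used the strand is not given in the sources used here, so reads of overlapping genes cannot be told apart. Annotations and CAZy families are from the study's list of differing genes, whose fold changes and *p*-values were not used. Gene positions are from RefSeq for the same assembly (9109 genes matched), without scaffold names.

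Libraries were scaled by size factors from medians of ratios (0.930 to 1.07), and log2 was taken after adding 1. The fit covered all 9006 genes above 0 FPKM in any library and used limma 3.58.1 with R 4.3.3 (empirical Bayes with a trend, strain as the only term), with Benjamini-Hochberg adjustment over all of them. The thresholds are those of the study's methods. Means and SDs use unscaled FPKM. Library totals, gene lengths and fragments were recovered from the steps of the FPKM (fragments whole within 0.01). For each of the 3 members, 1 gene length was possible. The fit was tested on simulated data. The *p*-values set the difference between strains against the spread between 3 cultures per strain, moderated over all genes fitted.

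The members, lists and genes to name were chosen with earlier results of these data known. Named are the members, the 2 genes on each side and the 3 genes of most similar pattern for each, the AA9 genes of the study's list, *gul1*, *cbh1*, *brlA* and *wetA*. Lists by words in the annotation were planned for P450, respiratory chain and other classes, but held 0 genes for want of annotation. The 14 genes known by symbol were added after the files had been seen, as was the limma-voom fit.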

Additional observations from a re-analysis of the deposited data

How the results depend on the processing

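The 3 members kept their direction and their call under all 14 alternatives, of which limma-voom was chosen after seeing the data. Because the study listed them for this contrast in these same libraries, this is no independent support for the difference. With 1 library left out, the log2 fold change lay between 1.09 and 1.20 for glucose oxidase (TRIREDRAFT_22915), between 1.61 and 1.85 for alcohol oxidase (TRIREDRAFT_123978) and between 1.26 and 1.38 for catalase (TRIREDRAFT_106245). The 168 genes called higher in Δ*gul1* became 289 with a pseudocount of 0.1 and 317 with limma-voom on the recovered fragments, while both leave the members called, and the cause was not tested. The genes called lower, 188, became 260 and 275. With the FPKM as deposited, 61.2% of calls were higher in place of 47.2%. Of the 3 AA9 genes that the study had listed from these libraries, 1 was called higher (1.87% of all genes), or 0 to 1 with 1 library left out, and 1 was called lower (2.09% of all genes) under every setting. With the replicate number as a block, 169 genes were called higher and 188 lower, and every member remained called. The numbers mark no shared origin in the labels, and deviations of same-numbered libraries correlated at -0.12, 0.22 and 0.42 over genes, and not every library correlated best with its own number. An adjusted *p* in place of the unadjusted one gave 167 calls as higher and 188 as lower.

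Positions on unnamed scaffolds limit the account of neighbours, and catalase in QPP, with 127 to 171 fragments per library, rests on the fewest fragments of the members.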
